A study of Danio rerio with 4 samples.

Results

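The comparison of SIS3 with vehicle in uninjured larval hearts covers 7170 genes of the 18231 gene IDs that the series lists in any library. A gene was described if it was listed in both uninjured libraries with a mean level of at least 5 FPKM (fragments counted per unit of transcript length and of library size). A described gene under 5 FPKM in either library passed only through the other. Of the genes listed in both, 8324 lay under that minimum, and 1292 genes were listed with SIS3 only and 734 with DMSO only. At the minimum, the kinase subunit gene prkacbb lay just inside at 5.49 FPKM with SIS3 and 4.51 FPKM with DMSO, and plex9.2 just outside at 5.06 and 4.94 FPKM in the same order.

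All hearts came from zebrafish larvae at 5 days post fertilization that carry Tg(vmhc:mCherry-NTR), a transgene in which the promoter of a ventricular myosin gene drives nitroreductase, the enzyme that makes metronidazole (MTZ) toxic to the cells holding it. The SIS3 group received 2 µM SIS3 and the vehicle group 0.2% DMSO, both between 76 and 124 hours post fertilization. A second pair of libraries came from SIS3 and DMSO after MTZ injury (5 mM for 4 hours, begun at 72 hours). It gives a second reading of the same compound and also entered the scaling of all libraries. Each group had 1 library. The sources used here do not say whether uninjured larvae met MTZ or how many hearts went into a library.

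TGF-β ligands bind paired receptor kinases, which phosphorylate Smad2 and Smad3. These join Smad4 in the nucleus and switch on genes of matrix, adhesion and contraction, along with the inhibitor Smad7, which dampens the pathway. SIS3 was made as an inhibitor of Smad3 phosphorylation, and in the heart this pathway is best known for matrix production, valve formation and the response to injury. The comparison asks what the compound does to a heart that has not been damaged.

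Most genes differed little between the libraries, and the Smad pathway was not among those that differed most. Across the 7170 genes the log2 change (SIS3 minus DMSO, on scaled FPKM + 1) had a median of −0.05, and 92.6% lay within 1.5-fold. At least 2-fold higher with SIS3 were 78 genes (1.09%), and at least 2-fold lower were 93 (1.3%). A short list with none or a single gene past 2-fold is near these shares. Past 4-fold were 12 higher and 9 lower genes. Of the genes past 2-fold, 45.6% were higher after scaling of the libraries and 58.6% without it, since scaling lowers each log2 ratio by 0.10. With scaling on the 2 uninjured libraries alone, 85 genes were at least 2-fold higher and 82 lower. With 1 library a side no difference has a replicate check, so no test was made and no error can be given. The threshold fell between cul1b (7.82 and 3.19 FPKM) and ecscr (26.5 and 11.9 FPKM, log2 change 0.999) on the higher side. On the lower side it fell between pvalb5 (47.1 and 88.8 FPKM) and the cone opsin gene OPN1SW (62.4 and 117 FPKM, log2 change −0.996).

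**Figure D1:**
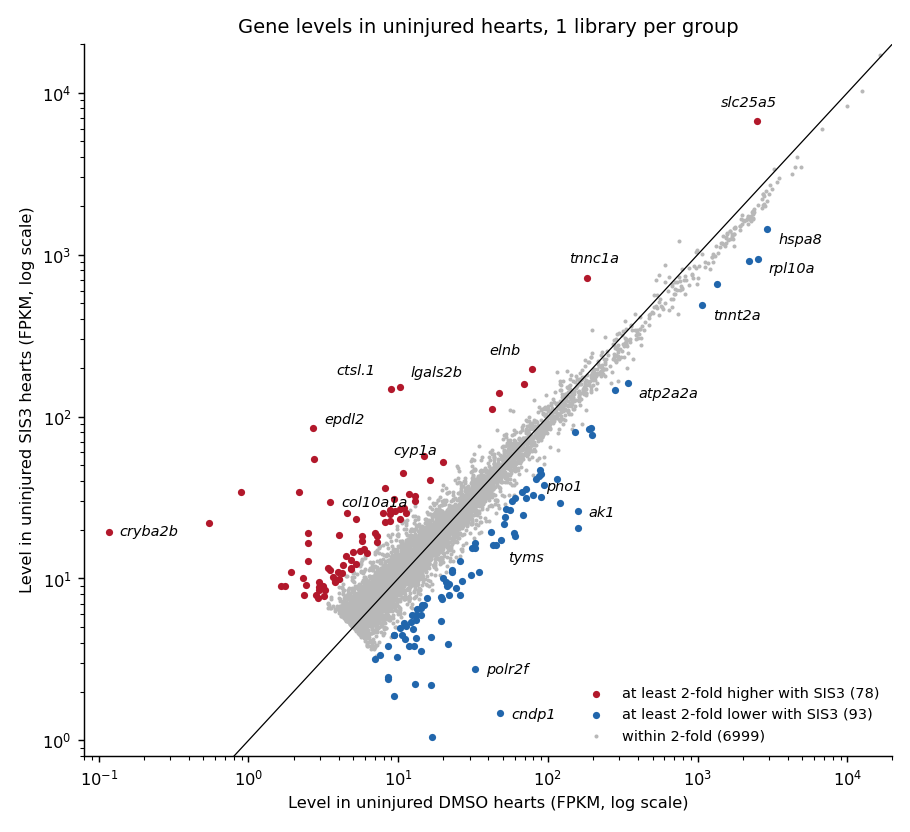
Level of each of the 7170 genes in the SIS3 library (vertical axis) against the DMSO library (horizontal axis), both in deposited FPKM on log scales. Red points are the 78 genes at least 2-fold higher with SIS3, blue points the 93 at least 2-fold lower and the line marks equal levels. The most distant named points are cryba2b and epdl2 above the line and cndp1 below it.

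The libraries carried the transcripts of heart muscle. The atrial and ventricular light chain gene myl7 was at 4025 FPKM with SIS3 and 4603 FPKM with DMSO, and the natriuretic peptide gene nppa at 1073 and 983 FPKM. The cardiac transcription factor gene nkx2.5 was at 68.1 and 59.06 FPKM. The atrial myosin gene myh6 was not listed in either uninjured library, although both injured libraries listed it, and a missing entry can be a failed estimate. Transcripts of other organs were present too, with trypsin (prss1) at 389 and 329 FPKM and the skin keratin gene krt4 at 429 and 741 FPKM. In such bulk samples fewer cells of a type and less RNA per cell cannot be told apart. The libraries listed 16786 gene IDs with SIS3 and 16228 with DMSO, and their log2 levels had a Pearson correlation of 0.970 across genes. Read depth could not be recovered from FPKM.

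The genes of the SIS3 target and its partners differed by less than 2-fold. Smad3a (ENSDARG00000036096, chromosome 7, 33831511 to 33878113 on GRCz10) was at 7.64 FPKM with SIS3 and 4.79 FPKM with DMSO, a log2 change of 0.49. Its paralog smad3b was at 6.65 and 6.07 FPKM. The partner smad4a was at 13.9 and 15.6 FPKM and smad2 at 10.9 and 10.1 FPKM. Smad7 (ENSDARG00000016858, chromosome 21, 3270279 to 3301805), the inhibitory Smad that the pathway itself induces, was at 12.2 and 15.98 FPKM. Its log2 change was −0.46 here and −0.41 in the injured pair, where it was at 14.1 and 19.9 FPKM. The injured log2 changes were −0.11 for smad3a, 0.09 for smad3b, 0.10 for smad4a and 0.03 for smad2. Of the 20 described ligands, receptors and Smads, 12 were above 0 and none was past 2-fold (median 0.02). None in a list of 20 is near the share over all genes described (1.09% higher and 1.3% lower). Among the ligands, tgfb2 was at 19.6 FPKM with SIS3 and 19.8 FPKM with DMSO and tgfb3 at 60.5 and 54.9 FPKM, while tgfb1a lay under the minimum at 3.95 and 2.21 FPKM.

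Genes that TGF-β commonly induces were spread around 0. Of 28 described, 16 were above 0 (median 0.03), and a single gene was past 2-fold. This was pmepa1, whose product binds receptor Smads and limits their signalling. It was at 10.8 FPKM with SIS3 and 4.23 FPKM with DMSO (log2 change 1.09), so it passed the minimum only through the SIS3 library. The matricellular gene ccn2a was at 26.3 and 21.99 FPKM, and the smooth muscle actin gene acta2 at 119 and 128 FPKM. The lysyl oxidase relative loxl1, which crosslinks elastin, was at 15.5 and 8.49 FPKM, and periostin a (postna) at 127 and 80.9 FPKM. On the other side of 0 were the myosin light chain gene myl9b (196 and 236 FPKM) and the tropomyosin gene tpm4a (2699 and 3060 FPKM). After injury the log2 changes were −0.23 for pmepa1, −0.46 for loxl1, −0.34 for postna and −0.26 for acta2. They were 0.03 for ccn2a, 0.06 for myl9b and 0.11 for tpm4a, and 17 of the 28 genes were above 0 (median 0.05).

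Matrix and mesenchymal genes gave the same picture, with elastin as the exception. Of 43 collagen and matrix genes, 26 were above 0 (median 0.03), and the one past 2-fold was elnb (ENSDARG00000069017, chromosome 21, 40813326 to 40857270), which encodes an elastin of the outflow tract wall. It was at 197 FPKM with SIS3 and 78.6 FPKM with DMSO, against 20.1 and 25.7 FPKM in the injured pair. The collagen I genes col1a1a (123 FPKM in both libraries) and col1a2 (64.1 and 58.2 FPKM) differed little, and the basement membrane collagen gene col4a2 was at 47.0 and 71.6 FPKM. None of 16 factors and markers of the epithelial-to-mesenchymal transition was past 2-fold (median 0.02). The transition factor snai2 was at 14.9 and 13.2 FPKM and fibronectin (fn1a) at 25.2 and 16.4 FPKM. No gene of the BMP and Id list (10 described) or of the Notch list (13 described) was past 2-fold. For these lists and that of the transition, none is near the share over all genes described (1.09% higher and 1.3% lower).

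**Figure D2:**
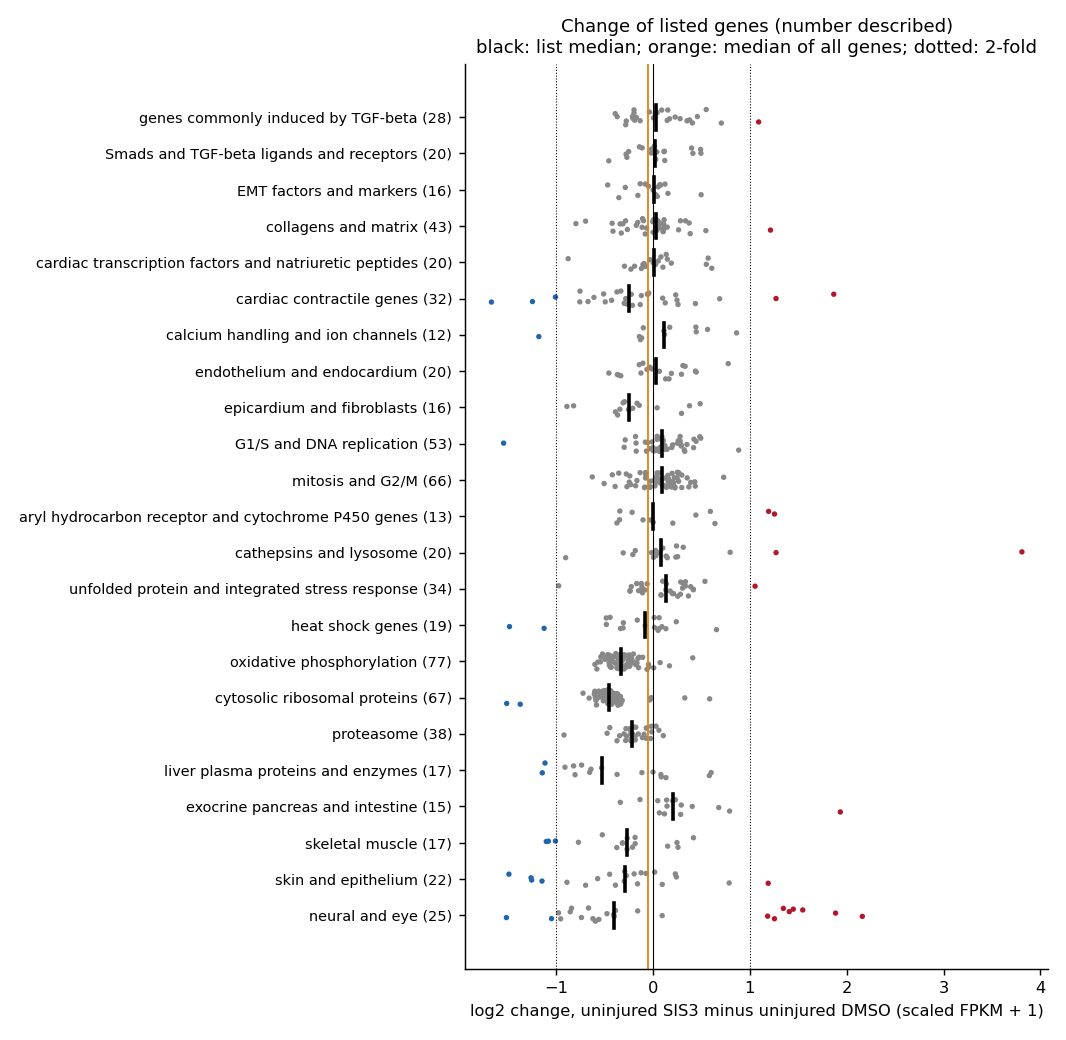
log2 change (horizontal axis, SIS3 minus DMSO in uninjured hearts) of every described gene in 23 lists, 1 point per gene, with red and blue for genes past 2-fold. Black bars are list medians, and the orange line is the median of all 7170 genes (−0.05). The liver, ribosomal, and neural and eye medians lie furthest to the left, and the TGF-β lists lie near 0.

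The genes with the largest values were of varied function, and those given here are examples. Epdl2 (ENSDARG00000055539, chromosome 21, 28475985 to 28486959), an ependymin-like secreted protein gene, was at 85.5 FPKM with SIS3 and 2.71 FPKM with DMSO (log2 change 4.47). Ctsl.1 (ENSDARG00000003902, chromosome 17, 27439841 to 27444267), a protease gene of the cathepsin L family, was at 147 and 8.95 FPKM (3.81). Lgals2b (ENSDARG00000038153, chromosome 6, 579652 to 586259), a galectin gene, was at 151 and 10.2 FPKM (3.67). Epdl2 and ctsl.1 were not higher with SIS3 after injury, where they were at 0.151 and 0.724 FPKM and at 24.7 and 26.1 FPKM. Lgals2b was higher there as well, at 84.7 FPKM with SIS3 and 5.28 FPKM with DMSO. Insulin (ins, chromosome 5, 37254532 to 37257543) was at 36.1 FPKM with SIS3 and 8.12 FPKM with DMSO and was listed in neither injured library.

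At the other end stood cndp1 (ENSDARG00000069583, chromosome 16, 55296448 to 55320715), which encodes a carnosine dipeptidase. It was at 1.47 FPKM with SIS3 and 48.1 FPKM with DMSO (log2 change −4.42). Polr2f (ENSDARG00000036625, chromosome 3, 2032082 to 2041501), a subunit shared by the nuclear RNA polymerases, was at 2.76 and 32.5 FPKM (−3.26). Ak1 (ENSDARG00000001950, chromosome 5, 70922383 to 70948302), the adenylate kinase of muscle, was at 26.1 and 159 FPKM (−2.66). The small-subunit assembly factor gene pno1 was at 29.1 and 121 FPKM, and at 114 and 19.6 FPKM after injury. Ftsj3, which processes ribosomal RNA, was at 3.57 and 14.3 FPKM, and at 20.5 and 19.8 FPKM after injury. Mettl5, which methylates ribosomal RNA, was at 2.24 and 12.9 FPKM.

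Part of the largest values depended on which end of the gene was read. The gene level is the larger of the summed first-exon and the summed last-exon FPKM, and both sums were past 2-fold for 53 of the 78 higher and 62 of the 93 lower genes. The troponin C gene tnnc1a (719 FPKM with SIS3 and 183 FPKM with DMSO) had no listed first exon in the SIS3 library and 108 FPKM there with DMSO. The light chain gene cmlc1 (11.02 and 34.7 FPKM) had no listed last exon with DMSO and 11.02 FPKM there with SIS3. The adenine nucleotide carrier gene slc25a5, among the most abundant transcripts, was at 6685 and 2478 FPKM by first exons and at 4195 and 2478 FPKM by last exons. The focal adhesion gene zyx was at 23.4 and 10.2 FPKM by first exons but at 1.85 and 9.91 FPKM by last exons, so its direction turned.

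Contractile genes went both ways, more often below 0 than above. Of 32 described, 9 were above 0, 2 were at least 2-fold higher and 3 lower (median −0.25, against 0.29 in the injured pair). Over all genes described, 1.09% were at least 2-fold higher and 1.3% lower. Of the contractile calls, tnnc1a and cmlc1 had an exon sum missing in a library. In the highest of 5 equal classes of level lay 25 of the 32. Their median there was −0.28, where all genes of that class had −0.19. Cardiac troponin T (tnnt2a, ENSDARG00000020610, chromosome 23, 5719252 to 5751073) was at 486 FPKM with SIS3 and 1074 FPKM with DMSO (log2 change −1.24), against 1130 and 945 FPKM after injury. The skeletal and early cardiac actin gene actc1b was at 80.4 and 152 FPKM, only just past 2-fold (−1.01, but −0.91 unscaled). On the other side were myom1b of the sarcomeric M-band (111 and 42.4 FPKM) and tnnc1a. The thick filament gene mybpc3 was at 342 and 198 FPKM, whereas the main cardiac actin gene actc1a was at 3364 and 3256 FPKM. In the same libraries the skeletal muscle list had 13 of 17 genes below 0 and a median of −0.27 (summed level of all its listed genes 2936 FPKM with SIS3 and 3386 FPKM with DMSO). Its part in the contractile values was not tested.

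Calcium handling had 1 gene past 2-fold among 12. The sarcoplasmic reticulum calcium pump gene atp2a2a (ENSDARG00000029439, chromosome 8, 11649527 to 11707308) was at 161 FPKM with SIS3 and 341 FPKM with DMSO (log2 change −1.18), and at 154 and 185 FPKM after injury. The sodium-calcium exchanger gene slc8a1a was at 110 and 55.9 FPKM, the calcium release channel gene ryr2b at 14.6 and 8.90 FPKM, and the T-type channel gene cacna1g at 13.1 and 8.70 FPKM. None of 20 cardiac transcription factors and natriuretic peptides was past 2-fold (median 0.01). That is near the share over all genes described (1.09% higher and 1.3% lower). Among them gata4 was at 20.2 and 17.1 FPKM, tbx5a at 20.7 and 22.7 FPKM and nppb at 99.0 and 100.4 FPKM. The venous and atrial factor gene nr2f2 was at 6.68 and 12.2 FPKM.

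Non-muscle cells of the heart showed no gene past 2-fold in their lists. For lists this short, none is near the share over all genes described (1.09% higher and 1.3% lower). Endothelial and endocardial genes had 10 of 20 above 0 (median 0.03), among them kdrl at 25.1 FPKM with SIS3 and 20.4 FPKM with DMSO, nfatc1 of the valve endocardium at 23.9 and 17.98 FPKM, and von Willebrand factor (vwf) at 108 and 58.3 FPKM. Epicardial and fibroblast genes had 4 of 16 above 0 (median −0.25). The retinoic acid synthesis gene aldh1a2 was at 24.0 and 29.2 FPKM and the epicardial factor tbx18 at 21.6 and 22.3 FPKM. The list also holds krt4 and rbp4, which skin and liver express (429 and 741 FPKM, and 226 and 372 FPKM). Of the macrophage list, 8 of 28 genes in the files were described (median −0.05, but 0.05 without scaling), and its myeloid factor spi1b lay under the minimum at 1.801 and 0.409 FPKM. The neutrophil lysozyme gene lyz was at 21.6 and 20.6 FPKM.

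Cell cycle genes were slightly above the rest. Of 66 mitotic and G2/M genes, 44 were above 0 (median 0.09), and of 53 G1/S and replication genes, 40 were (median 0.09), where 42.4% of all genes were above 0. No mitotic gene was past 2-fold, which for 66 genes is near the share over all genes described (1.09% higher and 1.3% lower). The proliferation marker mki67 was at 26.4 FPKM with SIS3 and 17.9 FPKM with DMSO, the condensin gene smc2 at 25.6 and 17.5 FPKM, and cyclin B1 (ccnb1) at 21.6 and 18.96 FPKM. The mitotic kinase gene plk1 lay on the other side at 23.0 and 29.0 FPKM. In the injured pair only 8 of the same 66 mitotic genes were above 0 (median −0.19), with mki67 at 20.4 and 27.8 FPKM. The G1/S list there had 15 of 53 above 0 (median −0.07). The difference between the pairs was not tested.

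Within the G1/S list 1 gene stood apart. Thymidylate synthase (tyms, ENSDARG00000042894, chromosome 7, 71293904 to 71300188), which makes the thymidine nucleotide for DNA, was at 17.2 FPKM with SIS3 and 48.5 FPKM with DMSO (log2 change −1.54), against 54.2 and 61.6 FPKM after injury. The replication clamp gene pcna was at 301 and 283 FPKM, and the single-strand binding gene rpa2 at 49.6 and 24.6 FPKM. Among 23 genes of p53 and arrest, the p53 ubiquitin ligase gene mdm2 was at least 2-fold higher (15.13 and 5.92 FPKM), while the arrest gene cdkn1a was at 26.8 and 28.2 FPKM. The list median was 0.04.

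Xenobiotic enzymes were higher in a few cases. The dioxin-inducible oxidase gene cyp1a (ENSDARG00000098315, chromosome 18, 5738730 to 5749620), the standard readout of the aryl hydrocarbon receptor, was at 52.6 FPKM with SIS3 and 20.04 FPKM with DMSO (log2 change 1.25). It was at 66.3 and 5.43 FPKM in the injured pair (3.42). Cyp3a65, an intestinal and hepatic oxidase gene, was at 8.94 and 3.13 FPKM and cyp1b1 at 8.78 and 4.93 FPKM. Both were under the minimum with DMSO and passed only through the SIS3 library. The receptor gene ahr2 was at 25.2 and 20.3 FPKM. Of the 13 described genes of that list, 7 were above 0 and 2 at least 2-fold higher (median 0.00). Without injury the list as a whole therefore did not follow cyp1a. In the injured pair 12 of the 13 were above 0 and 3 at least 2-fold higher (median 0.41). The liver list summed there to 5333 FPKM with SIS3 and 753 FPKM with DMSO. Its part in these values was not tested. Without injury none of 27 antioxidant genes was past 2-fold, with hmox1a at 40.2 and 27.9 FPKM and nqo1 at 11.96 and 12.05 FPKM. For a list of this size that is near the share over all genes described (1.09% higher and 1.3% lower).

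Stress genes of the endoplasmic reticulum were mostly above 0, while 2 cytosolic chaperones were at least 2-fold lower. Of 34 genes of the unfolded protein and integrated stress response, 21 were above 0 (median 0.14). In the injured pair 12 of the same 34 were above 0 (median −0.04). Without injury calreticulin (calr) was at least 2-fold higher, at 30.03 FPKM with SIS3 and 13.02 FPKM with DMSO. Of the lumenal chaperones, hspa5 (BiP) stood at 71.2 and 55.5 FPKM and hsp90b1 at 58.6 and 43.8 FPKM, and the pro-apoptotic factor gene ddit3 at 12.4 and 7.69 FPKM. The mTOR inhibitor gene ddit4 lay on the other side at 10.9 and 20.9 FPKM, and at 10.7 and 19.3 FPKM after injury. The heat shock list had 9 of 19 above 0 (median −0.08, but 0.02 without scaling). In it 2 genes were at least 2-fold lower, where 1.3% of all genes described were. These were the constitutive Hsc70 gene hspa8 (ENSDARG00000068992, chromosome 10, 29963106 to 29967488), at 1436 and 2921 FPKM, and the inducible hsp70l, at 9.61 and 26.7 FPKM. Hsp70 genes are near-identical in places, and the sources used here do not say how shared reads were assigned. Of 20 cathepsin and lysosome genes, 15 were above 0 (median 0.08), with ctsl.1 and the aminopeptidase cathepsin ctsh (25.9 and 9.49 FPKM) past 2-fold. Over all genes described, 1.09% were at least 2-fold higher. In the injured pair 8 of the 20 were above 0 (median −0.04), and ctsh was at 27.4 and 36.5 FPKM.

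A small shift took in nearly all genes of 3 lists of abundant transcripts. Of 67 cytosolic ribosomal protein genes, 65 were below 0 and 2 at least 2-fold lower (median −0.45). The 2 were rpl10a (ENSDARG00000042905, chromosome 8, 23716883 to 23721746) at 946 FPKM with SIS3 and 2516 FPKM with DMSO, and rpl23 at 917 and 2213 FPKM. The 2 above 0 were rplp1 (1214 and 755 FPKM) and rpl35a (748 and 555 FPKM). Nuclear genes of oxidative phosphorylation had 73 of 77 below 0 and none past 2-fold (median −0.33). None past 2-fold in 77 is near the share over all genes described (1.09% higher and 1.3% lower). The medians by complex were −0.33 for complex I (37 genes), −0.16 for complex II (4), −0.29 for complex III (8), −0.32 for complex IV (14) and −0.35 for ATP synthase (13). Of 38 proteasome genes, 35 were below 0 (median −0.21). In the injured pair the ribosomal median was −0.07, that of oxidative phosphorylation −0.02 and that of the proteasome −0.10. Without scaling the uninjured medians were −0.35, −0.23 and −0.12, and the directions held.

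A shift in the same direction was present in other abundant genes. In 5 equal classes of rising mean level, the median change was 0.03, 0.01, −0.03, −0.07 and −0.19, the last for genes of at least 31.9 FPKM. Outside the ribosomal and oxidative phosphorylation lists, 36 of 38 genes of at least 1000 FPKM were below 0 (median −0.37), and 61 of 71 genes between 300 and 1000 FPKM (median −0.31). Between 100 and 300 FPKM 202 of 248 were (median −0.21), and between 30 and 100 FPKM 725 of 1008 (median −0.13). In the highest of the 5 classes the list medians were −0.45 (ribosomal), −0.33 (oxidative phosphorylation) and −0.22 (27 proteasome genes), against −0.19 for all its genes. Genes of short genomic span were also lower, with a median of −0.16 in the shortest of 5 equal classes and 0.01 in the longest. The injured pair had medians of about 0 in every class of both properties (between −0.02 and 0.01). The globin gene hbae1.3 was at 10305 FPKM with SIS3 and 12602 FPKM with DMSO, the elongation factor gene eef1a1l1 at 8241 and 9915 FPKM and the glycolytic gapdh at 2810 and 3376 FPKM.

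**Figure D3:**
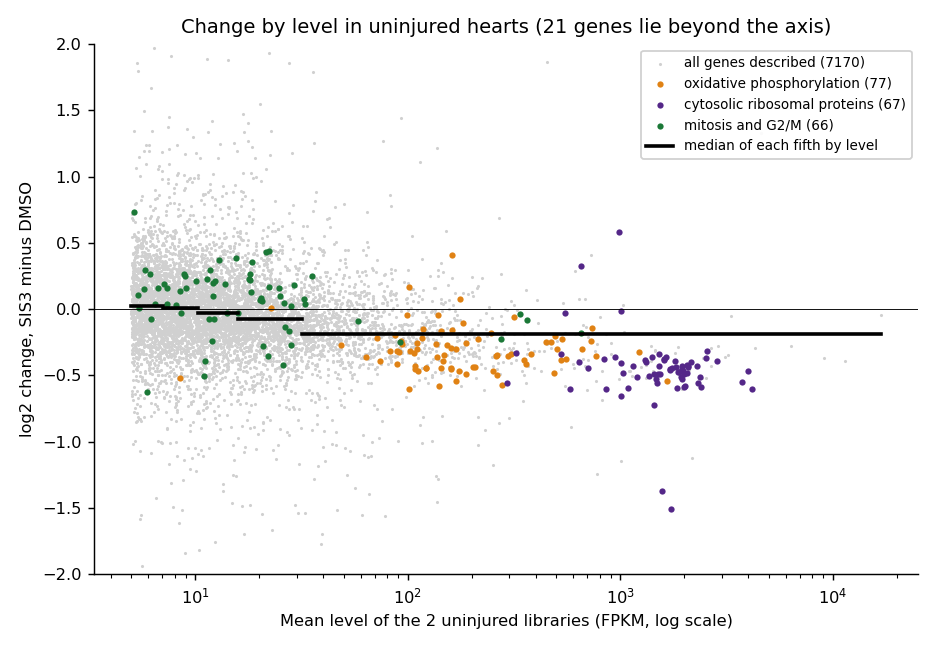
log2 change (vertical axis, SIS3 minus DMSO in uninjured hearts) against the mean level of both libraries (horizontal axis, FPKM on a log scale), with 21 genes beyond the axis. Coloured points mark 3 lists and black bars the median of each of 5 equal classes of genes by level. The bars descend to −0.19 in the highest class, where all 67 ribosomal protein genes lie.

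Transcripts of organs other than heart moved in both directions. The lens crystallins, structural proteins of the eye lens, were picked out after their values were seen. Of 27 in the files, 25 were listed with SIS3 and 24 with DMSO, and their summed level was 306 FPKM with SIS3 and 83.5 FPKM with DMSO. The 11 that passed the minimum were at least 2-fold higher, but 5 of them were under 5 FPKM with DMSO and passed only through the SIS3 library. One of these, cryba2b (19.4 and 0.117 FPKM), was higher by first exons only. Crygm2d2 was at 57.1 and 14.8 FPKM and crybb1 at 33.5 and 11.7 FPKM. Other eye and neural genes lay on the other side, such as the cone opsin gene opn1mw2 (51.0 and 94.5 FPKM), the glial lipid binder fabp7a (34.1 and 66.7 FPKM) and the myelin gene mbpa (4.26 and 13.1 FPKM). Of the 25 genes in the neural and eye list, 8 were at least 2-fold higher, 7 of them crystallins, and 2 lower. Over all genes described, 1.09% were at least 2-fold higher and 1.3% lower. Of 22 cartilage and bone genes in the files, 4 were described and 2 of them were at least 2-fold higher. These were the hypertrophic cartilage collagen gene col10a1a (29.7 and 3.50 FPKM) and the osteopontin gene spp1 (9.55 and 2.96 FPKM). Both were under 5 FPKM with DMSO and passed the minimum only through the SIS3 library. The main cartilage collagen gene col2a1a lay under the minimum at 0.918 and 4.39 FPKM, and 6 of the 22 genes were not listed with SIS3 and 2 with DMSO. Some defining genes of other organs were therefore present in both libraries in unequal amounts. Others differed little, such as elavl3 of the neural list (6.07 and 6.43 FPKM), epcam of the skin list (9.38 and 9.25 FPKM) and mylpfa of the skeletal muscle list (31.3 and 34 FPKM). The neural list gene gfap, under the minimum, was at 2.29 and 1.71 FPKM. The part of other organs in the other differences was not tested.

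Skin, liver and fast muscle genes were mostly lower with SIS3, where 57.6% of all genes described were below 0. In the highest of 5 equal classes of level, 11 skin genes had a median of −0.45 and 9 liver genes −0.80. There 12 skeletal muscle genes had −0.29 and all genes of the class −0.19. The skin list had 16 of 22 genes below 0 (median −0.28). Past 2-fold, 4 genes of the list were lower and 1 higher, where over all genes described 1.3% were lower and 1.09% higher. The higher gene was agr2 (8.475 FPKM with SIS3 and 2.95 FPKM with DMSO), which passed the minimum only through the SIS3 library. Of the type I and II keratin genes, krt91 was at 656 FPKM with SIS3 and 1356 FPKM with DMSO. Krt5 was at 83.4 and 187 FPKM and krt1-19e at 76.4 and 197 FPKM. Krt8 differed little (663 and 674 FPKM), and cyt1l lay on the other side (37.6 and 19.9 FPKM). Liver genes had 12 of 17 below 0 and 2 at least 2-fold lower (median −0.53, summed level of all listed genes 979 and 1444 FPKM). The liver fatty acid binding gene fabp10a was at 42.8 and 87.5 FPKM and the apolipoprotein gene apoa1a at 26.4 and 55.5 FPKM. By first exons apoa1a was at 26.4 and 28.04 FPKM, which is within 2-fold. Of 6 described parvalbumins, calcium buffers of fast muscle and neurons also picked after their values were seen, 4 were at least 2-fold lower, among them pvalb2 at 41.2 and 83.6 FPKM. For pvalb5 (−1.002) and pvalb8 (−1.06) the log2 change passed the threshold by less than the 0.10 that scaling adds. Exocrine pancreas and intestine genes leaned the other way, with 13 of 15 above 0 (median 0.20) and summed levels of 2388 and 2013 FPKM.

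The injured pair, which shares no library with the uninjured one, repeated few of the calls past 2-fold. By the same rule it had 170 genes at least 2-fold higher with SIS3 of 7492 (2.27%) and 65 at least 2-fold lower (0.868%). Of the 78 genes higher without injury, 55 were listed in both injured libraries, 37 of them above 0, and 3 were also at least 2-fold higher. Of the 93 lower genes, 87 were listed there, 43 of them below 0, and 8 were also at least 2-fold lower. These are 5.45% and 9.2% of the uninjured calls listed there, and 2.22% and 18.2% of the injured calls among the genes described. Of all 7086 described genes listed in both injured libraries, 135 were at least 2-fold higher there and 44 at least 2-fold lower. Both shares of the uninjured calls lie above those over all these genes, but they rest on 3 and 8 genes. Across 7086 genes the changes of the pairs had a Pearson correlation of 0.06 and a Spearman correlation of 0.07, as a description over genes that share libraries.

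Higher in both pairs were lgals2b, cyp1a and 1 gene without a symbol. Lower in both were polr2f (1.01 FPKM with SIS3 and 41.3 FPKM with DMSO after injury), mettl5 (4.20 and 14.5 FPKM), ponzr1 (1.98 and 28.1 FPKM), avpi1 (2.09 and 12.3 FPKM), prrc2a, chchd3b, ptp4a1 and 1 gene with a clone name. Ponzr1 encodes a small cysteine-rich membrane protein of the pronephros. It was at 7.44 and 19.5 FPKM without injury. Ptp4a1, a phosphatase of the regenerating liver family, was at 19.4 and 41.8 FPKM without injury and 23.1 and 52.9 FPKM after it. Its levels come from first exons, and by last exons it was at 4.96 and 1.46 FPKM without injury, the opposite direction. Past 2-fold in opposite directions, 11 genes were lower without injury and higher after it, and 1 was higher without injury and lower after it.

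**Figure D4:**
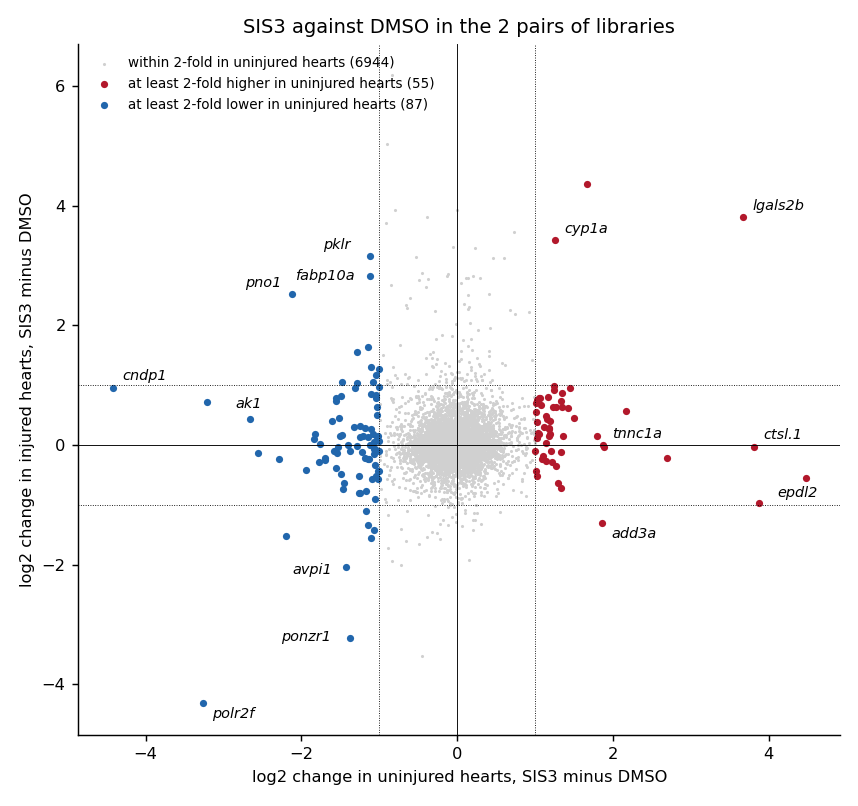
log2 change with SIS3 in injured hearts (vertical axis) against that in uninjured hearts (horizontal axis) for genes listed in all 4 libraries, with red and blue for genes at least 2-fold higher or lower without injury and dotted lines at 2-fold. Of the 55 red points, 3 lie above the upper dotted line, and of the 87 blue points, 8 lie below the lower one.

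**Figure D5:**
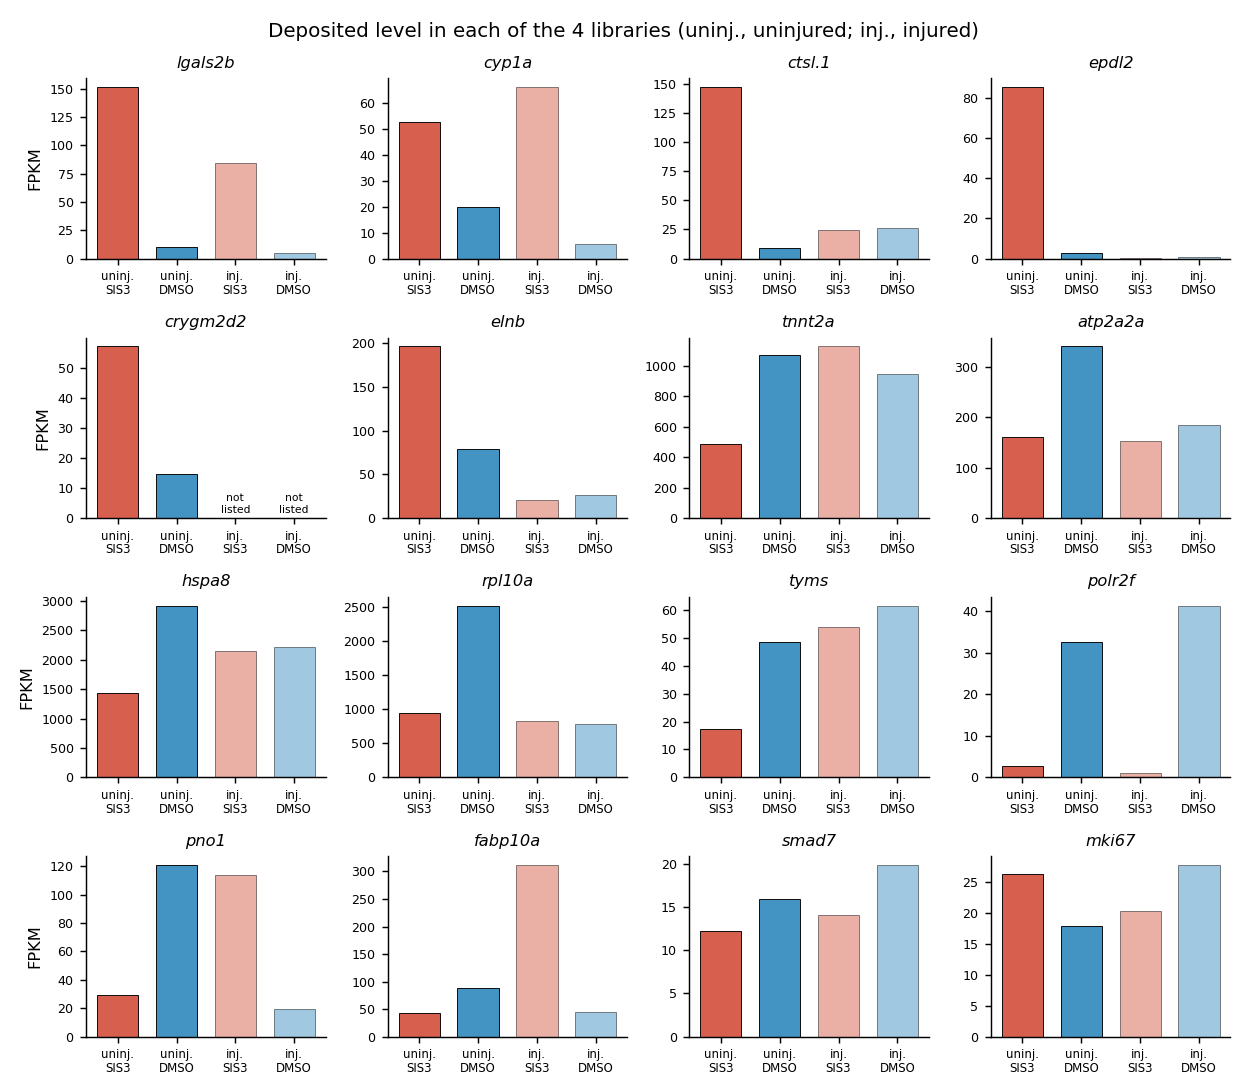
Deposited level (FPKM, each axis from 0) of 16 genes in the 4 libraries, with SIS3 in red, DMSO in blue and injured hearts in paler colours. Lgals2b, cyp1a and polr2f differ the same way in both pairs, pno1 and fabp10a in opposite ways, and crygm2d2 was not listed after injury.

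Exon use was read from the paired entries for a form that includes an exon or intron and a form that leaves it out. This readout was chosen after the data were seen. Of 1793 cassette exon events in 1310 genes whose forms summed to 5 FPKM or more in each library, 79 had an inclusion at least 20 percentage points higher with SIS3 (4.41%) and 71 at least 20 points lower (3.96%). Mean inclusion was 46.0% with SIS3 and 45.6% with DMSO. Of 546 intron events in 463 genes, 27 had at least 20 points more retention with SIS3 (4.95%) and 11 less (2.01%). Where both forms were listed in both libraries, the counts were 50 and 48 of 894 exon events and 6 and 2 of 123 intron events. The SIS3 library listed 820 retained-intron entries and the DMSO library 576.

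The 6 introns with more retention and both forms listed lay in genes of varied function. All events described were chosen after their values were seen. The intron of the splicing factor gene rbm39a on chromosome 11 (24102832 to 24104186) was retained in 66.1% with SIS3 and 15% with DMSO. This is a share of the summed FPKM of both forms, and it was 54.0% and 19.7% after injury. Its spliced form (3.83 and 10.36 FPKM without injury) is the form that includes the adjoining cassette exon (24102772 to 24102832). The form that skips this exon, at 36.09 and 14.35 FPKM, is outside the share. The exon itself was included in 9.6% and 41.9%, so the retained share is not one of all rbm39a transcripts. The intron of OGT, which adds N-acetylglucosamine to nuclear proteins, on chromosome 14 (14392831 to 14396603) was retained in 68.0% and 21.0%. After injury the shares were 30.1% and 0%. Its forms were at 7.03 and 3.31 FPKM with SIS3 without injury, and those of another OGT intron at 8.615 and 22.52 FPKM. The share is therefore not one of all OGT transcripts either. Without injury the splicing regulator gene rbm5 on chromosome 6 (53276237 to 53277573) gave 79.0% and 49.9%, and arglu1a on chromosome 9 (26279217 to 26283132) gave 57.6% and 37.1%. The DNA damage response gene tp53bp1 gave 45.3% and 24.5%, and the cytochrome P450 gene cyp2ad3 gave 36.9% and 14.7%. The log2 changes of the levels of these 6 genes were 0.55, 0.85, 0.82, 0.93, 0.20 and 0.07 in the same order. An intron of trnau1apb, of selenocysteine synthesis, on chromosome 2 (24658890 to 24659333) went the other way at 7.94% and 46.8%.

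Among cassette exons with both forms listed, large differences fell in genes of varied function. A 34-base exon of the polarity gene scrib on chromosome 7 (40989722 to 40989755) was included in 93.8% with SIS3 and 0.298% with DMSO, while the gene level differed little (log2 change −0.11). A 48-base exon of tpd52l2b on chromosome 23 (17513300 to 17513347) was included in 1.31% and 83.2%, and in 13.5% and 3.61% after injury. A 60-base exon of elavl1a, an RNA-stabilising protein, on chromosome 2 (37148848 to 37148907) was included in 0.694% and 79.8%. A 48-base exon of the collagen chaperone gene serpinh1b on chromosome 15 (29453723 to 29453770) was included in 72.4% and 21.7%, and in 26.9% and 25.3% after injury. A 39-base exon of the splicing factor gene srsf7a on chromosome 5 (36297642 to 36297680) was included in 98.0% and 48.1%, and in 93.0% and 72.7% after injury. A 29-base exon of the ribosomal protein gene rps24 on chromosome 13 (30103375 to 30103403) was included in 34.4% and 3.98%, but in 26.8% and 72.7% after injury. A 48-base exon of the spectrin gene sptan1 on chromosome 21 (13087349 to 13087396) was included in 92.8% and 71.0%. The scrib and elavl1a exons went the opposite way or differed less after injury, at 32.3% and 77.3% and at 0.520% and 8.57%.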

How the data were processed

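RNA was measured by sequencing in 4 heart libraries, 1 per group. The deposited values are FPKM that the authors computed for transcript events, which per the file headers are the first or the last exon of a gene and the forms with or without a cassette exon or intron. CASAVA 1.8, HISAT2 2.0.5, HTSeq 0.6.1 and the build GRCz10 appear in the submitters' processing notes with no role. Which program made the FPKM tables was not given in the sources used here.

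Repeated entries were used once (346 with SIS3 and 345 with DMSO). Entries without a gene ID (5.43% and 4.8% in the same order) were left out. A gene's level is the larger of its summed first-exon and summed last-exon FPKM, and printed levels are the deposited values. Each library was divided by its median ratio to the geometric mean over the 4 libraries (log2 of the divisor −0.02 with SIS3 and −0.12 with DMSO). A change is the difference of log2(scaled FPKM + 1), which understates the change of low genes, and a call is at least 2-fold. Depth is unknown, so no counting interval is given.

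Of 18296 gene IDs, 7289 took their symbol from the gene table, 9472 from their neighbours in the RefSeq annotation of GRCz12tu and 318 an orthologue symbol, 229 shared a symbol and 988 had none. No coordinate came from that assembly. Coordinates are GRCz10 as in the files and span a gene's entries. The members and the 44 gene lists were chosen with earlier results of these data known. Named genes are the 15 highest and 15 lowest, up to 4 of each list by size of change, the 10 most abundant and 38 fixed names. Not all of them are printed. Genes past 2-fold higher in both pairs, lower in both or in opposite directions were added, up to 10 of each. Further list members are given as examples and were chosen after their values were seen. The genes hand2 and tcf21 of the fixed names were not analysed here. Inclusion is the FPKM of the including form as a percent of both forms. The scaling and the change were tested on simulated gene levels, which held no shift with level. The naming, the choice between exon sums and the inclusion were not tested in this way. Work was done in Python 3.11.15 with pandas 2.3.3, numpy 2.4.6 and matplotlib 3.10.9. Alternatives were the scaling, the pseudocount, the filter, the events used and the genes counted.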

Additional observations from a re-analysis of the deposited data

Results flagged for a closer look

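Past 2-fold with SIS3, 11 genes were lower in the uninjured and higher in the injured pair, and 1 was the reverse. Given here are the 10 with a gene symbol whose smaller change of the pairs was largest. Of all 7086 described genes listed in both injured libraries, 135 were at least 2-fold higher there and 44 at least 2-fold lower. The difference between the pairs was not tested. The log2 changes, uninjured first and injured second, were −2.12 and 2.53 for the ribosome assembly gene pno1, −1.28 and 1.55 for lmo7a, −1.28 and 1.03 for the RNA-binding gene rbpms2b and −1.48 and 1.06 for hsp70l. Genes of liver were apoa1a (−1.14 and 1.65), pklr (−1.12 and 3.17) and fabp10a (−1.11 and 2.82). Genes of fast skeletal muscle were pvalb2 (−1.10 and 1.31) and tnnt3b (−1.08 and 1.06). The adducin gene add3a was the one with the reverse order (1.86 and −1.31). In the same libraries the described liver genes had a median of −0.53 without injury and 2.56 after it, and those of skeletal muscle −0.27 and 0.76. The part of those tissues in these values was not tested. Some of these calls depended on the setting: without injury apoa1a had a log2 change of −0.17 by first exons, pklr of −0.54 and rbpms2b of −0.78 by last exons, and tnnt3b of −0.98 without scaling. In the same pair, pno1 was at 29.1 FPKM with SIS3 and 121 FPKM with DMSO by either sum of exons.

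Outside the genes described, 7 with a mean of at least 5 FPKM were listed in 1 uninjured library and not in the other, 4 of them with SIS3 and 3 with DMSO. The ileal bile acid binding gene fabp6 was at 229 FPKM with SIS3 and was listed in none of the other 3 libraries. The mitochondrial gene MT-ND4 was at 48.3 FPKM, and the genes with clone names si:ch211-184m19.3 and si:ch211-265g21.1 were at 50.5 and 23.1 FPKM. With DMSO only were the clathrin adaptor gene ap2m1b at 24.8 FPKM, si:dkey-193e13.8 at 55.4 FPKM and ENSDARG00000087953 at 30.3 FPKM. A gene missing from a library can be a failed estimate, as both injured libraries listed si:ch211-184m19.3 at 42.3 FPKM with SIS3 and 59.5 FPKM with DMSO.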

How the results depend on the processing

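No paired analysis was possible because each group has 1 library, which also leaves no replicate to leave out. The counts of higher and lower genes (78 and 93) stayed within 1.5 times under other scalings (no scaling 95 and 67), a pseudocount of 0, first-exon or last-exon events only, and without the lists of other tissues (66 and 82). They were 38 and 53 with a pseudocount of 5 FPKM, 175 and 157 with a mean of at least 1 FPKM (12774 genes), 212 and 174 when genes missing from a library were kept at 0 as well, 19 and 44 with a mean of at least 20 FPKM (2290 genes), and 45 and 54 among the 5119 genes whose sums of exons lay within 10%. Restricting events to those with both forms listed in both libraries, an alternative added after the data were seen, gave 50 and 48 cassette exons and 6 and 2 introns. Of 69 named genes past 2-fold, 53 kept their call in every alternative that lists them. The filters, by level or by agreement of the exon sums, and the pseudocount of 0 could not remove a call. An alternative does not test a gene that it does not list. With first-exon events only 6 genes were not listed, and with last-exon events only 14. Among the latter was ptp4a1, which goes the opposite way by last exons. With a pseudocount of 5 FPKM 13 genes lost their call, among them pmepa1 (0.73), calr (0.89) and mdm2 (0.83). Reversed were zyx with last-exon events only (−2.04) and rbp4 with first-exon events only (2.14). Of 428 list medians computed under the alternatives, 25 moved by more than 0.1. That tolerance is about the 0.10 by which scaling shifts each log2 ratio, so it says little about the scaling. Some medians near 0 turned from below to above it without scaling. Among them were integrins and focal adhesion (−0.04 and 0.05), Notch (−0.02 and 0.07) and hypoxia response (−0.05 and 0.05). The BMP and Id, sterol synthesis, and complement and coagulation lists did so too. With 1 library a side the spread between libraries was not measured, so no value, past 2-fold or not, can be set against it.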

Other observations

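Fuel and growth genes outside the account above differed little. Of 31 glycolysis genes, 22 were below 0 and 1 was at least 2-fold lower (median −0.16, against 0.27 in the injured pair). That gene was pklr, the pyruvate kinase of liver and red cells, at 5.98 FPKM with SIS3 and 13.2 FPKM with DMSO. The aldolase gene aldoaa was at 682 and 701 FPKM and the lactate dehydrogenase gene ldha at 117 and 105 FPKM. Of 27 fatty acid oxidation genes, 12 were above 0 with scaling and 17 without, so the direction of their median turned (−0.05 and 0.05). The carnitine transferase gene cpt1ab was at 47.4 and 32.2 FPKM and the nuclear receptor gene ppardb at 10.8 and 5.07 FPKM.

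Other lists held single genes past 2-fold. The immediate early gene fosab was at 160 FPKM with SIS3 and 68.7 FPKM with DMSO, with 6 of 10 genes of its list above 0. The stress gene ndrg1b was at 3.94 and 21.5 FPKM, with 8 of 17 hypoxia response genes above 0. The focal adhesion gene parvb, which links integrins to actin, was at 18.2 and 60.03 FPKM, while the integrin gene itgb1a was at 27.9 and 28.97 FPKM. No described gene of the circadian clock (24) or of erythrocytes and haem (20) was past 2-fold. For lists of this size that is near the share over all genes described (1.09% higher and 1.3% lower).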
